A study of Mus musculus with 6 samples.

Results

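Smooth muscle contractile genes were followed across mouse prostate tumors and normal prostate. The 10 genes were Myh11, Tagln, Actg2, Acta2, Des, Cnn1, Myocd, Lmod1, Smtn and Synpo2. They were taken by symbol, 10 of 24091 genes in the count table, by a rule that uses no measured value, although earlier results of these data were known when they were chosen. All 10 were among the 15050 genes with enough counts to be tested, although Myocd had 3 counts or fewer in every 12Q library and passed through the other groups. RNA came from 6 libraries, 2 in each of 3 groups. Tumors called 12Q grew in the prostate of males with a humanised allele whose polyglutamine tract holds 12 glutamines, and those called 48Q in males whose allele holds 48. Both tumor groups also carried Ctnnb1(Ex3)L/wt, a conditional exon 3 of the β-catenin gene on 1 allele, and the transgene PBCre-4, whose probasin promoter drives Cre recombinase in prostate epithelium. WT stands for normal prostate from wild-type animals, without any of these alleles. Age and strain are not stated in the labels used here, and no tumor-free prostate with these alleles was analysed, so genotype and tumor cannot be told apart against WT. Whether the 2 replicates of a group are separate animals is not stated, so the p-values reflect the spread of these libraries alone, which could be technical.

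The prostate is a gland whose epithelial ducts are wrapped in a stroma of smooth muscle cells and fibroblasts. Smooth muscle cells contract when myosin, activated through its light chain, pulls on actin filaments that are anchored to dense bodies and to the cell membrane, and desmin filaments tie these anchor points together. Many genes of this apparatus are switched on by serum response factor (SRF), which binds a DNA element called the CArG box, together with its muscle coactivator myocardin. PBCre-4 acts in the epithelium, so the smooth muscle cells are not among the cells in which the transgene is meant to act.

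Libraries held 26416181 to 28559546 counts, and the unit of level is CPM, read counts scaled to the TMM-corrected size of each library. A count of 3 stood at 0.0856 to 0.156 CPM. Ctnnb1, the targeted gene, was at 958 and 1035 CPM in 12Q tumors, 1082 and 957 CPM in 48Q tumors and 669 and 569 CPM in WT prostate, and counts per gene cannot show the loss of an exon. Pbsn, the secreted protein probasin that defines mouse prostate epithelium, was at 3.33 and 5.14 CPM in 12Q tumors, 3954 and 2248 CPM in 48Q tumors and 28214 and 16144 CPM in WT prostate. Hoxb13, a transcription factor gene of the prostate, was at 207 and 57.2 CPM in 12Q tumors, 127 and 113 CPM in 48Q tumors and 201 and 246 CPM in WT prostate. The labelled tissue was thus marked by Hoxb13 in every library, while Pbsn was close to absent in 12Q tumors.

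The promoter of Acta2 and the 3' coding ends of the muscle actins are shown because the first holds the DNA element through which this gene set is known to be controlled, and the second bears on whether reads of similar actins can be told apart. RefSeq promoter windows, 250 bases before to 50 bases after the start site, were found for 6 of the 10 genes (Acta2, Cnn1, Des, Lmod1, Smtn and Synpo2). The exact CArG box, CC followed by 6 bases of A or T and then GG on either strand, was in 0 of these 6 windows and in 535 of all 32851 windows (1.63%). A wider search that let 1 of the inner 6 bases be C or G was chosen after the first result was seen. It matched 1 of the 6 windows, that of Acta2, and 3280 of all 32851 windows (9.98%). The Acta2 window held 2 such matches, which start 84 and 34 bases before the start site and are in capitals in the 250 bases upstream of the gene (RefSeq on GRCm38.p6, chr19:34255374-34255623, minus strand).
Acta2 promoter: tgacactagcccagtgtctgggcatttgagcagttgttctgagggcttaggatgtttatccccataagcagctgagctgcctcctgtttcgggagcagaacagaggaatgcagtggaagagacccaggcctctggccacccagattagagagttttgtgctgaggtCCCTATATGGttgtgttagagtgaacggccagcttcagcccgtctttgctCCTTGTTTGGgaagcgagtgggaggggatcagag
A match is a description of letters in this window, and windows without one say nothing about SRF.

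The actins are among the most alike proteins of the mouse, which matters for counting reads. The coding sequence of Acta2 was identical to that of Actg2 at 84.2% of bases, to that of Acta1, the skeletal muscle actin, at 85.4%, and to that of Actb, the cytoplasmic β-actin, at 82.8% (GENCODE M21). The last 60 coding bases of the 3 muscle actins, stop codon included, are shown with capitals at the 15 positions where they are not all the same.
Acta2: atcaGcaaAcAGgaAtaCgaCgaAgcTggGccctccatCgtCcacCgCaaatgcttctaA
Actg2: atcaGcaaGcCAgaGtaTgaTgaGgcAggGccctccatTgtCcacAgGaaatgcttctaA
Acta1: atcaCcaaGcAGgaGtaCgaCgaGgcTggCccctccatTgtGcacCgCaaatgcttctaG
Of all windows of 50 bases in the Acta2 transcript 0.326% were also found in another gene, and of those of Actg2 0%. For Actb the share was 12.2% and for Actg1, the cytoplasmic γ-actin, 45.6%, so counts of the cytoplasmic actins depend more on how reads with several matches were treated, a setting that the sources used here do not give. For the other members the share was at most 0.391% (Myh11). Exons of Tagln, Des and Smtn overlap genes on the opposite strand, and the strand setting is not stated, so their counts are uncertain to that extent.

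All 10 genes were lowest in 12Q tumors, and 8 of them were in order 12Q, 48Q, WT with no overlap between neighbouring groups. The share of all tested genes in that 3-group order was not computed. For each pair of groups the share without overlap was 30.4% with 12Q below WT, 29.8% with 48Q below WT and 35.5% with 12Q below 48Q. Myocd encodes myocardin, the coactivator that turns on the contractile genes. At mm10 chromosome 11, 65176571 to 65269989 (minus strand), it was at 0.111 and 0 CPM in 12Q tumors (3 and 0 counts), 4.34 and 2.34 CPM in 48Q tumors (144 and 82 counts) and 3.96 and 15.1 CPM in WT prostate (76 and 341 counts). Myocd was therefore at or near 0 in both 12Q libraries, and the 48Q and WT libraries overlapped.

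Myh11 encodes the myosin heavy chain of smooth muscle, the motor of contraction (chromosome 16, 14194527 to 14291408, minus strand). It was at 1.92 and 2.66 CPM in 12Q tumors, 263 and 69.4 CPM in 48Q tumors and 771 and 2460 CPM in WT prostate. The 3 groups did not overlap, and the WT libraries were further apart than the 12Q libraries. Acta2, which encodes α-smooth muscle actin and is also made by myofibroblasts and pericytes (chromosome 19, 34240336 to 34255373, minus strand), was at 26.3 and 22.1 CPM in 12Q tumors, 256 and 99.99 CPM in 48Q tumors and 478 and 1226 CPM in WT prostate. Actg2, the γ-actin of visceral smooth muscle (chromosome 6, 83512909 to 83536251, minus strand), was at 4.77 and 3.78 CPM in 12Q tumors, 32.1 and 10.5 CPM in 48Q tumors and 122 and 282 CPM in WT prostate. Both actin genes kept the groups apart.

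The genes for proteins that bind these filaments followed the same order without overlap between groups, except Smtn. Tagln encodes transgelin, an actin-binding protein of smooth muscle (chromosome 9, 45929628 to 45936058, minus strand), and was at 8.51 and 5.17 CPM in 12Q tumors, 139.7 and 60.1 CPM in 48Q tumors and 485 and 839 CPM in WT prostate. Cnn1 encodes calponin, which binds actin and inhibits the myosin ATPase (chromosome 9, 22099253 to 22109221, plus strand), and was at 0.666 and 0.681 CPM in 12Q tumors, 70.01 and 22.4 CPM in 48Q tumors and 236 and 523 CPM in WT prostate. In both genes every 12Q library lay below every 48Q library, and these lay below every WT library. Lmod1 encodes leiomodin, which nucleates actin filaments (chromosome 1, 135324813 to 135368065, plus strand), and was at 0.740 and 1.02 CPM in 12Q tumors, 14.9 and 6.73 CPM in 48Q tumors and 29.6 and 81.3 CPM in WT prostate. Synpo2 encodes a synaptopodin of muscle that binds actin and α-actinin (chromosome 3, 123076519 to 123236149, minus strand), and was at 1.11 and 1.98 CPM in 12Q tumors, 28.9 and 10.5 CPM in 48Q tumors and 83.9 and 264.7 CPM in WT prostate. These levels also did not overlap between groups. Smtn encodes smoothelin, a cytoskeletal protein of contractile smooth muscle (chromosome 11, 3517522 to 3539292, minus strand), and was at 10.2 and 17.2 CPM in 12Q tumors, 31.9 and 18.02 CPM in 48Q tumors and 30.8 and 81.8 CPM in WT prostate. Smtn was the least separated of the 10, with 1 of the 48Q libraries level with a WT library and the other close to a 12Q library.

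Des encodes desmin, the intermediate filament of muscle (chromosome 1, 75360292 to 75368579, plus strand). It was at 2.29 and 1.95 CPM in 12Q tumors, 80.6 and 32.3 CPM in 48Q tumors and 218 and 509.6 CPM in WT prostate, with no overlap between the groups. Summed over the 10 genes, the level was 56.6 and 56.5 CPM in 12Q tumors, 921 and 332 CPM in 48Q tumors and 2458 and 6282 CPM in WT prostate. In bulk samples such as these, fewer smooth muscle cells and less of these RNAs per cell cannot be told apart.

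**Figure D1:**
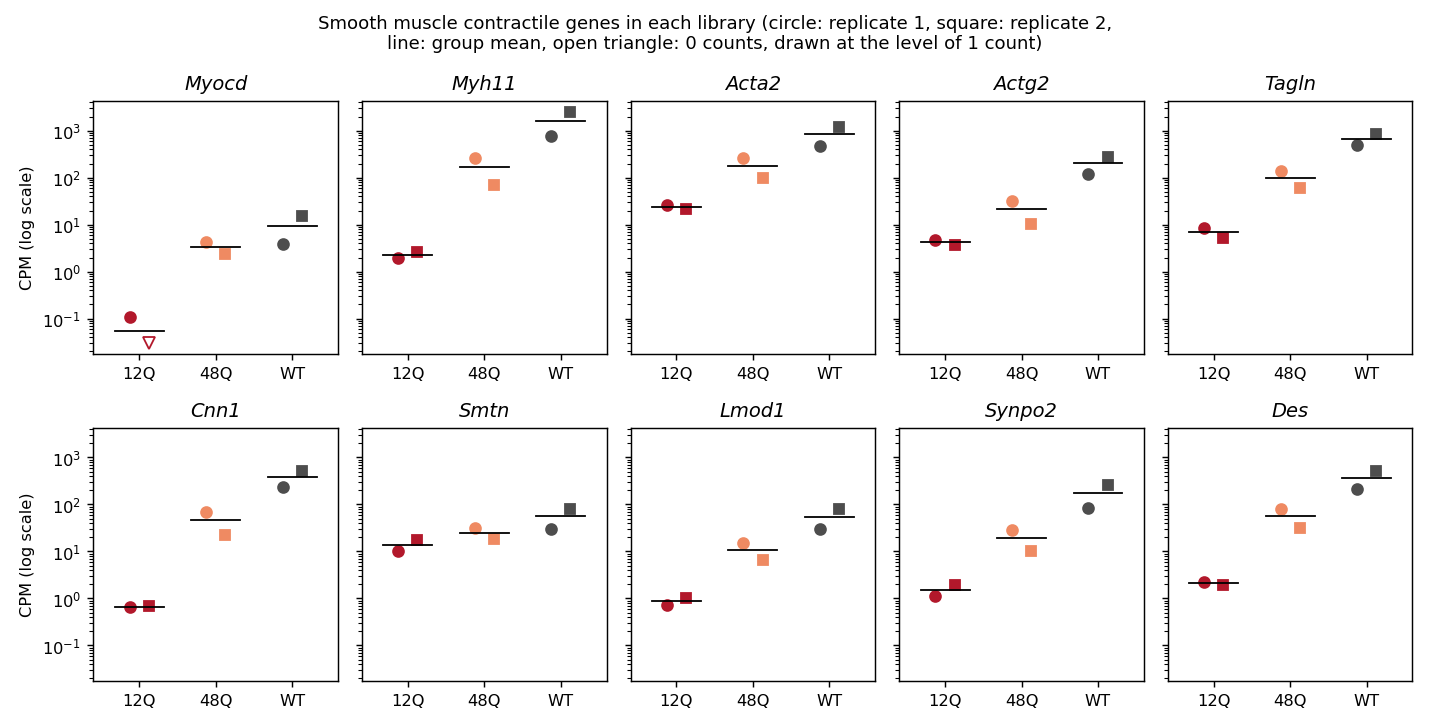
Level of each of the 10 genes in every library, in CPM on a log axis, with 12Q, 48Q and WT from left to right, circles for replicate 1, squares for replicate 2 and a line for the group mean; an open triangle marks 0 counts and is drawn at the level of 1 count. The 12Q libraries are lowest in every panel, from 0.111 and 0 CPM for Myocd to 26.3 and 22.1 CPM for Acta2, and the 48Q and WT libraries overlap for Myocd and Smtn.

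12Q tumors were set against WT prostate to see how far the contractile genes differ between these tumors and normal prostate. All 10 genes fell, by edgeR's quasi-likelihood test with Benjamini-Hochberg adjustment over the 15050 tested genes, and 0 were higher, also at an unadjusted p under 0.05 and by DESeq2. Of all tested genes 11.2% were called lower and 11.2% higher in this comparison. Myocd passed the count filter only through the other groups and could not have been called higher, so its call adds nothing to the tally. Myh11 averaged 2.29 ± 0.522 CPM in 12Q tumors and 1615 ± 1194 CPM in WT prostate (SD, n = 2 each), 702-fold lower (log2 fold change -9.45, SE 1.09, edgeR adjusted p = 0.00517). Cnn1 averaged 0.673 ± 0.0105 CPM in 12Q tumors and 379.8 ± 203 CPM in WT prostate, 560.1-fold lower (log2 fold change -9.13, edgeR adjusted p = 0.00353). Des was 171-fold lower, Synpo2 112-fold and Tagln 96.8-fold (edgeR adjusted p = 0.00373, 0.00644 and 0.00372). Lmod1 was 62.4-fold lower (edgeR adjusted p = 0.00576). The actins followed, with Actg2 47.2-fold and Acta2 35.2-fold lower (edgeR adjusted p = 0.00678 and 0.00735). Smtn fell least, 4.10-fold (log2 fold change -2.04, SE 0.56, edgeR adjusted p = 0.0472), with means of 13.7 ± 4.97 CPM in 12Q tumors and 56.3 ± 36.1 CPM in WT prostate. For Myocd, with 3 counts in 12Q and 417 in WT, the ratio of CPM was 0.00507 (exact 95% interval 0.00104 to 0.0149, counting error only), and it passed the test (edgeR adjusted p = 0.0136).

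Over the 10 genes the median log2 fold change was -6.70, where that of all tested genes was -0.01. Both 12Q libraries lay below both WT libraries for 10 of 10 genes, as they did for 30.4% of all tested genes. The call of Smtn was lost without either 12Q library, without either 48Q library and without WT replicate 2 (edgeR adjusted p = 0.168, 0.0949, 0.0592, 0.0586 and 0.165), and when library totals replaced TMM (0.106). The call of Myocd was lost without 12Q replicate 2 (edgeR adjusted p = 0.0501, ratio of CPM 0.0111, exact 95% interval 0.00228 to 0.0327). Without 12Q replicate 1, where only 0 counts remained, Myocd was at least 103-fold lower, and without WT replicate 1 or WT replicate 2 its ratio was 0.00335 (0.000688 to 0.00988) or 0.0128 (0.00257 to 0.0387). The calls of the other 8 genes held without any 1 library, but the fold change of 7 of them moved by more than 1.5 times without WT replicate 2. Without that library the log2 fold change was -8.39 for Myh11, -8.45 for Cnn1, -6.68 for Des, -5.76 for Synpo2, -5.06 for Lmod1, -4.83 for Actg2 and -4.31 for Acta2. Without WT replicate 1 it was -10.06 for Myh11 and -7.40 for Synpo2. For Smtn the log2 fold change was -1.17 without WT replicate 2.

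48Q tumors were next compared with these WT libraries. Of the 10 genes 3 fell and 7 did not pass the test, and 0 were higher, also at an unadjusted p under 0.05 and by DESeq2. Of all tested genes 1.23% were called lower and 3.95% higher. Actg2 averaged 21.3 ± 15.3 CPM in 48Q tumors and 202 ± 113 CPM in WT prostate, 9.47-fold lower (log2 fold change -3.24, SE 0.64, edgeR adjusted p = 0.0459). Cnn1 averaged 46.2 ± 33.7 CPM in 48Q tumors and 379.8 ± 203 CPM in WT prostate, 8.22-fold lower (log2 fold change -3.04, SE 0.63, edgeR adjusted p = 0.0498). Tagln averaged 99.9 ± 56.3 CPM in 48Q tumors and 662 ± 250.3 CPM in WT prostate, 6.63-fold lower (log2 fold change -2.73, SE 0.53, edgeR adjusted p = 0.0439). All 3 calls lay close to the threshold of 0.05. Without 48Q replicate 1 the log2 fold changes of Tagln, Actg2 and Cnn1 were -3.46, -4.27 and -4.09, and without 48Q replicate 2 they were -2.25, -2.66 and -2.44. Without WT replicate 1 they were -3.07, -3.73 and -3.51, and without WT replicate 2 they were -2.29, -2.52 and -2.37. All 3 calls were lost in each of these fits. Without either 48Q library or WT replicate 1 far fewer of all tested genes were called too, so those losses do not single out the 3 genes. The calls of Actg2 and Cnn1, but not that of Tagln, were also lost without 12Q replicate 1 or 12Q replicate 2.

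The other genes had log2 fold changes of -3.28 for Myh11, -3.15 for Synpo2, -2.69 for Des, -2.36 for Lmod1 and -2.26 for Acta2 (edgeR adjusted p = 0.0719, 0.0611, 0.0521, 0.0748 and 0.0838). For each of these 5 genes both 48Q libraries lay below both WT libraries. For Myocd it was -1.51 (SE 0.91, edgeR adjusted p = 0.348) and for Smtn -1.17 (SE 0.55, edgeR adjusted p = 0.243), and the groups overlapped. In all, 8 of 10 genes had both 48Q libraries below both WT libraries, as did 29.8% of all tested genes. The median of the 10 genes was -2.71 on the log2 scale, where that of all tested genes was 0.02. With DESeq2 in place of edgeR 8 of the 10 genes passed the test, and with library totals or with only the 48Q and WT libraries in the fit 0 passed by edgeR, where 8 had an unadjusted p under 0.05. With library totals the median of all tested genes lay at 0.71 and that of the 10 genes at -2.06.

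12Q tumors were set against 48Q tumors, which differ by label only in the length of the glutamine tract. Of the 10 genes 5 fell (Myh11, Tagln, Des, Cnn1 and Lmod1), 5 did not pass the test and 0 were higher, also at an unadjusted p under 0.05 and by DESeq2. Of all tested genes 3.16% were called lower and 1.01% higher. Myh11 averaged 2.29 ± 0.522 CPM in 12Q tumors and 166 ± 137 CPM in 48Q tumors, 72.2-fold lower (log2 fold change -6.17, SE 0.95, edgeR adjusted p = 0.0297). Cnn1 averaged 0.673 ± 0.0105 CPM in 12Q tumors and 46.2 ± 33.7 CPM in 48Q tumors, 68.1-fold lower (log2 fold change -6.09, SE 0.76, edgeR adjusted p = 0.0229). Des averaged 2.12 ± 0.243 CPM in 12Q tumors and 56.5 ± 34.1 CPM in 48Q tumors, 26.6-fold lower (edgeR adjusted p = 0.0246). Tagln was 14.6-fold lower and Lmod1 12.2-fold (edgeR adjusted p = 0.0277 and 0.0419). Myocd, with 3 counts in 12Q tumors and 226 in 48Q tumors, had a ratio of CPM of 0.0153 (exact 95% interval 0.00313 to 0.0452, counting error only) and did not pass (edgeR adjusted p = 0.0553). Synpo2, Acta2 and Actg2 had log2 fold changes of -3.66, -2.88 and -2.32 (edgeR adjusted p = 0.0540, 0.0578 and 0.0881), and Smtn had -0.86 (SE 0.55, edgeR adjusted p = 0.353).

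Both 12Q libraries lay below both 48Q libraries for 10 of 10 genes, as for 35.5% of all tested genes, and the median of the 10 genes was -3.76 against 0.00 for all tested genes. Without 12Q replicate 1 or 12Q replicate 2 0 of the 10 genes passed by edgeR, although 9 or 8 had an unadjusted p under 0.05. The 5 genes then had edgeR adjusted p of 0.0759 to 0.131 or 0.0805 to 0.102, with log2 fold changes for Myh11 of -5.93 and -6.42. Without 48Q replicate 1 Cnn1 still passed (log2 fold change -5.04, edgeR adjusted p = 0.0351), and Myh11, Tagln, Des and Lmod1 were at -4.91, -3.13, -3.93 and -2.92 (edgeR adjusted p = 0.0816, 0.0889, 0.0632 and 0.156). Without 48Q replicate 2 Lmod1 did not pass (-4.06, edgeR adjusted p = 0.0533), while Myh11 and Cnn1 were at -6.83 and -6.68. With library totals 4 of the 5 passed, Lmod1 being lost. With DESeq2 9 of the 10 genes passed, Smtn being the exception. The 3 comparisons share libraries, so their values are not independent of each other.

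**Figure D2:**
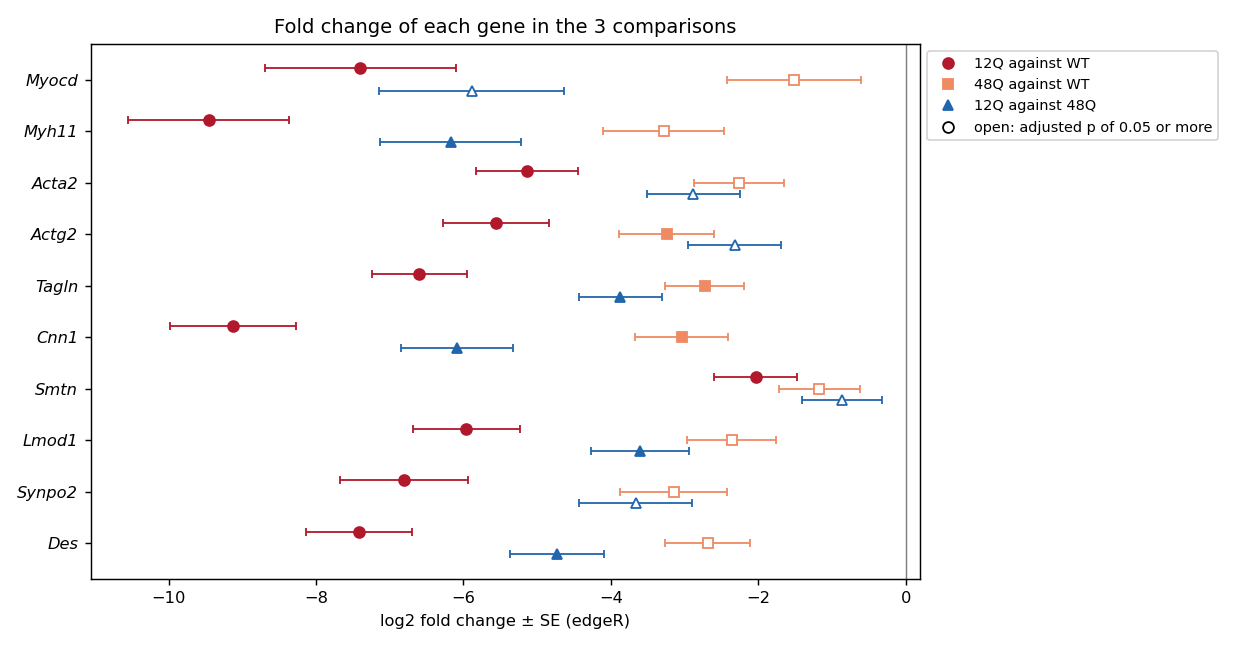
Log2 fold change of each of the 10 genes with its SE from edgeR, in 12Q against WT, 12Q against 48Q and 48Q against WT; filled symbols had an adjusted p under 0.05 and open symbols did not. All symbols lie below 0, with 10 filled for 12Q against WT, 5 for 12Q against 48Q and 3 for 48Q against WT, and Myh11 and Cnn1 reach -9.45 and -9.13.

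Replicates of the 48Q and WT groups differed in these genes as a block. WT replicate 2 was above WT replicate 1 for 10 of 10 genes, by 1.73-fold (Tagln) to 3.80-fold (Myocd), with a median ratio of 2.61. The 9459 genes with a group mean of at least 10 CPM had a median ratio of 0.946. 48Q replicate 1 was above 48Q replicate 2 for 10 of 10 genes, by 1.77-fold (Smtn) to 3.79-fold (Myh11), with a median ratio of 2.53 against 0.995 for those 9459 genes. In 12Q tumors 5 genes were higher in each library. The ratio of replicate 2 to replicate 1 could be formed for 9 genes and ran from 0.607 to 1.78. The level of the set thus moved together within the 48Q and WT groups as well as between groups, but not within 12Q tumors.

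Across the 6 libraries each gene was compared with the mean log2 CPM of the other 9. Pearson's r was 0.897 for Smtn, 0.957 for Myocd, 0.965 for Actg2 and 0.991 to 0.998 for the other 7 genes, as a description over libraries that differ in the same group means. Outside the set, the 8 genes most like its mean were Myl9 (r = 0.999) and Gpr37l1, Fkbp9, Cachd1, Tmem246, S100pbp, Prkar2b and Gnao1 (r = 0.995 to 0.997). Myl9 encodes the regulatory light chain of smooth muscle myosin. It was at 2.55 and 2.91 CPM in 12Q tumors, 51.9 and 21.2 CPM in 48Q tumors and 137 and 298 CPM in WT prostate.

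The make-up of the set was compared per transcript length, as each gene's share of the summed RPKM (CPM per kb of the deposited length) of the 10 genes. In WT prostate Tagln and Acta2 led with 34.3% and 26.1%, and 20.9% and 23.5%, in replicates 1 and 2. In 12Q tumors Acta2 led with 44.1% and 41.6%. Tagln held 23.2% and 15.8%, Smtn 10.9% and 20.7%, and Actg2 14.6% and 13.0%, so that Tagln came next in replicate 1 and Smtn in replicate 2. Smtn thus took a larger part of what remained in 12Q tumors than in 48Q tumors (2.46% and 3.63%) or in WT prostate (0.854% and 0.998%).

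Myh11 held 1.09% and 1.69% of the set in 12Q tumors, 10.7% and 7.42% in 48Q tumors and 11.3% and 15.9% in WT prostate. Cnn1 held 1.39% and 1.59% in 12Q tumors, 10.5% and 8.80% in 48Q tumors and 12.8% and 12.4% in WT prostate. Des held 3.23% and 3.08% in 12Q tumors, 8.19% and 8.60% in 48Q tumors and 7.97% and 8.20% in WT prostate. For these 3 genes both 12Q libraries lay below the other 4, and both 48Q libraries lay below both WT libraries for Myh11 and Cnn1. The summed RPKM behind the shares was 23.2 and 20.7 in 12Q tumors, 322 and 123 in 48Q tumors and 894 and 2032 in WT prostate, and with 2 libraries a group these shares carry no test.

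**Figure D3:**
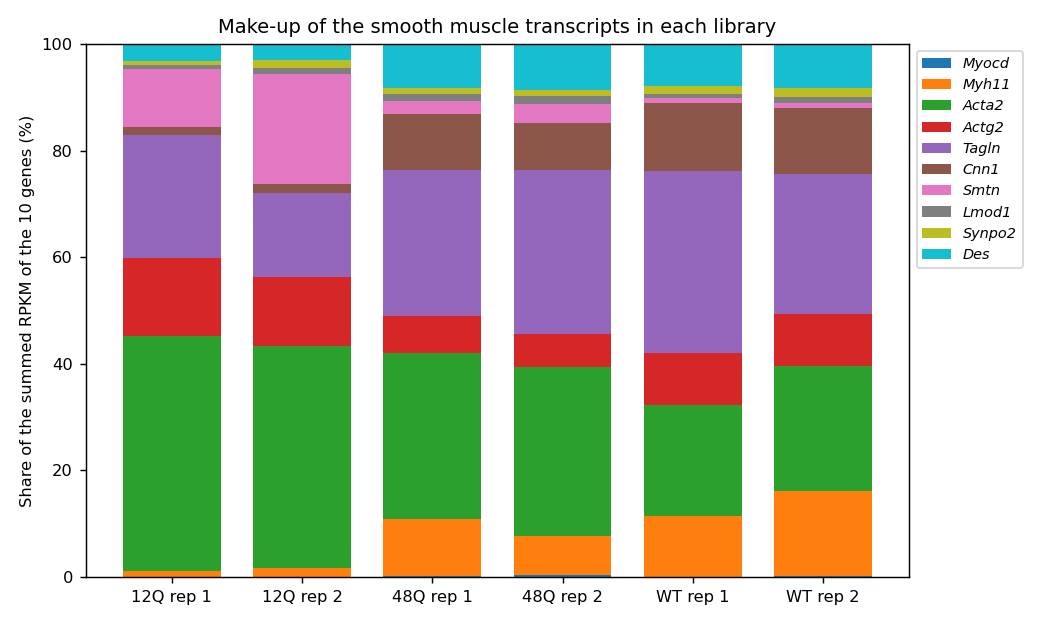
Share of each of the 10 genes in their summed RPKM, in percent, as 1 stacked bar per library with the 12Q libraries left, then 48Q and WT. Myh11, Cnn1 and Des take smaller shares in the 12Q bars (1.09% and 1.69% for Myh11), and Acta2 and Smtn larger ones (44.1% and 41.6% for Acta2).

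Most of the smooth muscle proteins have a close relative that other cells use, and each gene was set beside its relative per length. Acta2 and Actg2 made up 0.887% and 0.916% of the RPKM of Acta2, Actg2 and Actb in 12Q tumors, 17.4% and 6.80% in 48Q tumors and 33.7% and 54.3% in WT prostate. Myh11 made up 0.312% and 0.198% of the RPKM of Myh11 and the non-muscle myosins Myh9 and Myh10 in 12Q tumors, 32.1% and 11.3% in 48Q tumors and 47.1% and 80.3% in WT prostate. In 12Q tumors the smooth muscle form was thus under 1% of both families.

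Tagln made up 1.56% and 1.02% of the RPKM of Tagln and its widely expressed relative Tagln2 in 12Q tumors, 44.7% and 24.9% in 48Q tumors and 82.1% and 90.9% in WT prostate. Cnn1 made up 0.183% and 0.281% of the 3 calponins in 12Q tumors, 22.9% and 8.87% in 48Q tumors and 46.8% and 73.6% in WT prostate. Des made up 1.21% and 0.946% of Des and Vim, the intermediate filament of mesenchymal cells, in 12Q tumors, 29.3% and 17.9% in 48Q tumors and 66.3% and 81.6% in WT prostate. In all 5 families the 3 groups did not overlap. The smooth muscle genes in these shares are among those whose own levels did not overlap, so this largely restates their order. Smtn and Myocd, which overlapped, were in none of these families. How often other gene families show such an order was not computed.

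**Figure D4:**
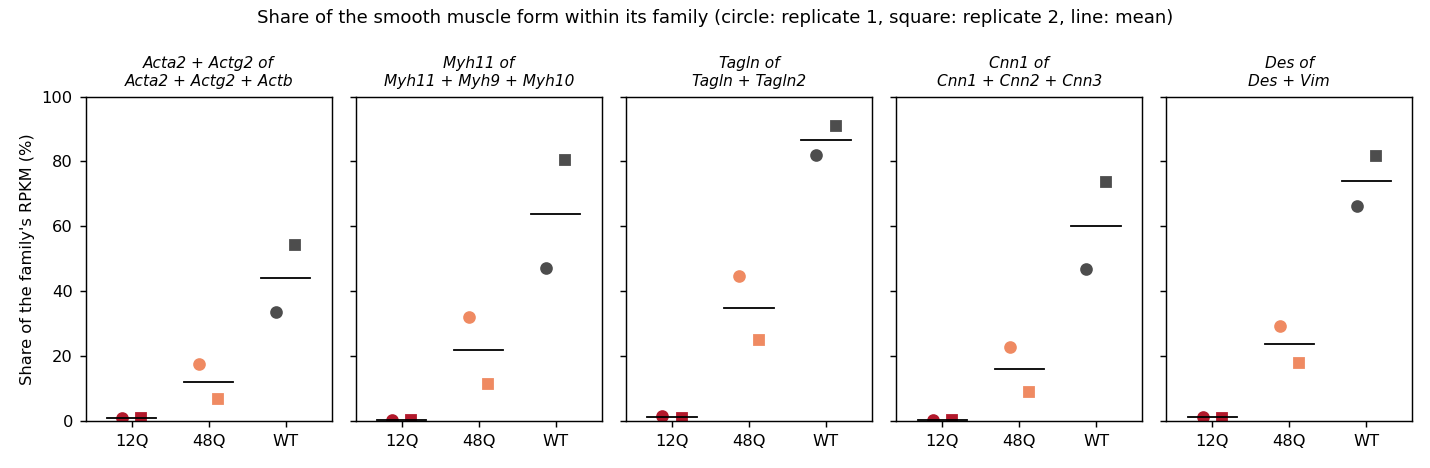
Share of the smooth muscle form in the RPKM of its family, in percent, for 5 families, with 12Q, 48Q and WT from left to right, circles for replicate 1, squares for replicate 2 and a line for the mean. The 12Q libraries are at 1.56% or less in every panel and the WT libraries at 33.7% or more.

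Some of the relatives rose. Of 11 tested cytoplasmic and non-muscle counterparts, 6 were higher in 12Q tumors than in WT prostate, 0 lower and 5 not past the test, with a median log2 fold change of 1.04. For this list and those that follow, 11.2% of all tested genes were called lower and 11.2% higher in 12Q against WT. The shares were 1.23% and 3.95% in 48Q against WT, and 3.16% and 1.01% in 12Q against 48Q. Tagln2 averaged 453 ± 21.9 CPM in 12Q tumors and 82.7 ± 13.4 CPM in WT prostate (log2 fold change 2.45, edgeR adjusted p = 0.00409), a call that held without any 1 library (2.29 to 2.63). Actb was at 2915 and 2336 CPM in 12Q tumors, 1112 and 1219 CPM in 48Q tumors and 1029 and 1093 CPM in WT prostate, and rose in 12Q against WT (log2 fold change 1.31, edgeR adjusted p = 0.0460), a call lost without any 1 library other than 12Q replicate 2 (1.19 to 1.46). The number of counterparts called higher was 2 to 4 when 1 library was left out. Between 48Q tumors and WT prostate edgeR called 0 of 11, with 3 higher at an unadjusted p under 0.05 and 2 by DESeq2. In 12Q against 48Q Tagln2 alone was called, 1.55 higher on the log2 scale (edgeR adjusted p = 0.0303), a call lost without either 12Q or either 48Q library.

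Most SRF partners did not pass the test in 12Q tumors. Srf was at 43.2 and 55.1 CPM in 12Q tumors, 41.9 and 39.6 CPM in 48Q tumors and 36.5 and 50.1 CPM in WT prostate, and both tumor groups overlapped with WT (12Q against WT log2 fold change 0.18, edgeR adjusted p = 0.637). Mkl1 and Mkl2, which encode the myocardin-related coactivators of SRF, did not pass in 12Q against WT (log2 fold changes 0.92 and -0.46, edgeR adjusted p = 0.0848 and 0.288). Of 12 tested SRF partners 2 were lower, 1 higher and 9 not past in 12Q against WT, with a median of 0.17. These counts lay near the shares of all tested genes, 11.2% lower and 11.2% higher. Prrx1, a homeobox factor of mesenchymal cells, averaged 3.16 ± 0.961 CPM in 12Q tumors and 25.95 ± 9.63 CPM in WT prostate (log2 fold change -3.04, edgeR adjusted p = 0.00867). Gata6, a transcription factor gene also expressed in smooth muscle, was at 0.111 and 0.155 CPM in 12Q tumors, 0.933 and 0.713 CPM in 48Q tumors and 1.67 and 1.06 CPM in WT prostate. Its groups did not overlap, in the order of the contractile genes, and it fell in 12Q against WT (log2 fold change -3.31, edgeR adjusted p = 0.0223), a call lost without any 1 library other than WT replicate 2. Elk3, a partner of SRF, was the 1 that rose (log2 fold change 1.88, edgeR adjusted p = 0.0458), a call lost without any 1 of the 12Q or 48Q libraries (1.29 to 2.92 when 1 library was left out). edgeR called 0 of 12 SRF partners in 48Q against WT, with 2 higher at an unadjusted p under 0.05 and 0 by DESeq2. In 12Q against 48Q it called Prrx1 alone (log2 fold change -3.20, edgeR adjusted p = 0.0255), a call lost without any 1 of the 12Q or 48Q libraries.

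Other genes of the contractile apparatus fell in part. Of 15 genes for myosin light chains, their kinase and phosphatase and the thin filament, 8 fell, 0 rose and 7 did not pass in 12Q against WT (median -1.49). Tpm2, a tropomyosin of muscle, averaged 3.35 ± 0.0173 CPM in 12Q tumors and 415 ± 215 CPM in WT prostate (log2 fold change -6.95, edgeR adjusted p = 0.00407, -7.40 to -6.30 when 1 library was left out). Myl9 had a log2 fold change of -6.31 (edgeR adjusted p = 0.00416) and Cald1, which encodes the actin-binding caldesmon, -4.16 (edgeR adjusted p = 0.00962), with ranges of -6.76 to -5.64 and -4.70 to -3.31. The number that fell was 3 to 6 when 1 library was left out. Against WT, 48Q tumors had 2 of 15 lower, Tpm2 (-3.40, edgeR adjusted p = 0.0341) and Tpm1 (-1.55, edgeR adjusted p = 0.0487), both lost without 48Q replicate 2 or either WT library, and Tpm1 also without 48Q replicate 1. In 12Q against 48Q Myl9 and Tpm2 fell (-3.74 and -3.55, edgeR adjusted p = 0.0304 and 0.0370), both lost without 12Q replicate 1, 12Q replicate 2 or 48Q replicate 1.

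Of 20 genes of dense bodies and focal adhesions, 5 fell, 1 rose and 14 did not pass in 12Q against WT (median -0.76). Fhl1, a LIM protein of muscle, averaged 1.06 ± 0.181 CPM in 12Q tumors, 65.01 ± 25.03 CPM in 48Q tumors and 90.8 ± 33.9 CPM in WT prostate. It fell in 12Q against WT (log2 fold change -6.42, edgeR adjusted p = 0.0027, -6.76 to -5.99 when 1 library was left out) and against 48Q (-5.94, edgeR adjusted p = 0.0100, a call lost without 12Q replicate 2 at 0.0527). Flnc, a filamin of muscle, fell by 4.74 on the log2 scale in 12Q against WT (edgeR adjusted p = 0.00578), or by 4.02 to 5.22 when 1 library was left out.

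The 1 that rose was Csrp2, a LIM protein of smooth muscle and other mesenchymal cells. Csrp2 averaged 499.7 ± 63.3 CPM in 12Q tumors, 206 ± 61.4 CPM in 48Q tumors and 31.9 ± 8.62 CPM in WT prostate. Its log2 fold change against WT was 3.97 in 12Q (edgeR adjusted p = 0.00353, 3.71 to 4.28 when 1 library was left out) and 2.69 in 48Q (edgeR adjusted p = 0.0186, a call lost without either WT library or 48Q replicate 2). Its relative Csrp1 fell in 48Q against WT (-1.88, edgeR adjusted p = 0.0431), a call lost without any 1 of the 48Q or WT libraries.

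Of 22 genes of calcium and cyclic nucleotide control, 11 fell, 0 rose and 11 did not pass in 12Q against WT (median -2.70), and 3 to 11 fell when 1 library was left out. Jph2, which couples the surface membrane to calcium stores, averaged 0.757 ± 0.286 CPM in 12Q tumors and 32.5 ± 25.1 CPM in WT prostate (log2 fold change -5.41, edgeR adjusted p = 0.00983, -6.03 to -4.27 when 1 library was left out). Pln, which encodes phospholamban, the inhibitor of the calcium pump, had 0 counts in both 12Q libraries against 70 counts in WT prostate, at least 15.8-fold lower with a floor of 3 counts per library, or 8.70-fold without WT replicate 2. Its call was lost without 12Q replicate 2 (edgeR adjusted p = 0.0533), and its exons overlap a gene on the opposite strand. For 48Q tumors against WT edgeR called 0 of 22, with 6 lower and 3 higher at an unadjusted p under 0.05, and DESeq2 called 4 lower and 2 higher.

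Of 12 tested genes of caveolae and the dystrophin complex, 7 fell, 1 rose and 4 did not pass in 12Q against WT (median -2.26), with 3 to 7 falling when 1 library was left out. Sgcd, the δ-sarcoglycan gene, had 0 counts in both 12Q libraries and 126 counts in WT prostate, at least 28.6-fold lower (edgeR adjusted p = 0.0133), or 16.9-fold without WT replicate 2. Ptrf, which encodes the caveolar coat protein cavin, averaged 22.6 ± 5.47 CPM in 12Q tumors and 97.9 ± 10.4 CPM in WT prostate (log2 fold change -2.11, edgeR adjusted p = 0.00961). In 48Q tumors 0 of 12 were called against WT by edgeR, with 3 lower at an unadjusted p under 0.05 and 3 by DESeq2.

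Markers of other cells that hold or neighbour these genes were read beside the set. Pericytes, which also make Acta2, were represented by 9 genes, and 0 of 9 fell in 12Q against WT by edgeR, at an unadjusted p under 0.05 or by DESeq2, with 2 higher, Higd1b and Ndufa4l2, and a median of 1.42. Their summed level was 130 and 147 CPM in 12Q tumors, 234 and 203 CPM in 48Q tumors and 22.7 and 114 CPM in WT prostate, with none of the 9 at 0 in any group. Rgs5, a defining pericyte gene, was at 59.6 and 39.1 CPM in 12Q tumors, 102 and 95.5 CPM in 48Q tumors and 2.77 and 24.6 CPM in WT prostate. The sum was thus higher in every tumor library than in either WT library, while the sum of the contractile genes was lower. Rgs5 held 59.6 of the 130 CPM in 12Q replicate 1 and 24.6 of the 114 CPM in WT replicate 2. The order of these libraries in the pericyte sum therefore rests on Rgs5. Of the single genes 5 of 9 had both 12Q libraries above both WT libraries, and 5 of 9 had both 48Q libraries above them. The share of all tested genes in that direction was not computed. In the lower direction it was 30.4% for 12Q and 29.8% for 48Q, so these counts carry no conclusion. Cspg4 and Abcc9 overlapped with WT in both tumor groups. Within WT the pericyte sum and the contractile genes were both higher in replicate 2. The part of pericytes in the levels of Acta2 and the other members was not tested.

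Of 10 fibroblast markers 6 fell, 0 rose and 4 did not pass in 12Q against WT (median -3.75). Against 48Q tumors 5 fell, 0 rose and 5 did not pass (median -4.38). Their summed level was 234 and 513 CPM in 12Q tumors, 1347 and 1127 CPM in 48Q tumors and 878 and 1202 CPM in WT prostate, and Dpt was at 0 in both 12Q libraries. Pdgfra, a receptor of fibroblasts, averaged 0.983 ± 0.186 CPM in 12Q tumors, 72.8 ± 13.02 CPM in 48Q tumors and 32.8 ± 13.3 CPM in WT prostate. In 12Q tumors it fell by 5.05 on the log2 scale against WT prostate and by 6.20 against 48Q tumors (edgeR adjusted p = 0.00294 and 0.00813). Of the 10 fibroblast markers edgeR called 0 in 48Q against WT (1 lower and 2 higher at an unadjusted p under 0.05, 2 higher by DESeq2), with a median of 0.69 where the 10 contractile genes had -2.71. Most fibroblast markers thus moved with the contractile genes in 12Q tumors, with a negative log2 fold change against WT in 9 of 10. Col1a1 was the exception (log2 fold change 1.63, edgeR adjusted p = 0.198). It was at 73.9 and 195 CPM in 12Q tumors and 12.8 and 74.1 CPM in WT prostate. Col1a2 overlapped between 12Q and WT. The part of fibroblasts in the result was not tested.

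Of 8 endothelial markers 1 fell and 4 rose in 12Q against WT (median 2.31), with 1 to 5 higher when 1 library was left out, and their summed level was 266 and 303 CPM in 12Q tumors, 134 and 132 CPM in 48Q tumors and 76.9 and 110.01 CPM in WT prostate, with none at 0. Basal epithelial markers, a layer that shares some contractile genes in other glands, fell in 4 of 4 genes in 12Q against WT, with sums of 1.52 and 5.04 CPM in 12Q tumors, 237 and 196 CPM in 48Q tumors and 235 and 213 CPM in WT prostate. The summed level of 7 luminal epithelial markers was 6006 and 5421 CPM in 12Q tumors, 6993 and 5253 CPM in 48Q tumors and 35864 and 20997 CPM in WT prostate. In 12Q against WT 1 of these 7 fell, Pbsn, which makes up most of the WT sum. Secretory genes of the seminal vesicle, a muscular gland beside the prostate, summed to 1.55 and 2.48 CPM in 12Q tumors, 26.9 and 56.9 CPM in 48Q tumors and 0.730 and 0.884 CPM in WT prostate, with Svs2, Svs3a, Svs3b and Svs6 at 0 in WT. The part of basal, luminal, endothelial and seminal vesicle cells in the result was not tested.

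Striated muscle, which surrounds parts of the urethra near the prostate and shares Des with smooth muscle, was represented by 17 genes, of which 9 had enough counts. In 12Q against WT 3 of 9 fell and 0 rose by edgeR. At an unadjusted p under 0.05 3 were lower and 3 higher, and DESeq2 called 3 lower and 0 higher. Against the same WT libraries 48Q tumors had 2 lower, Acta1 and Tnnc2, and 1 higher, Neb. Neb encodes nebulin, a filament of skeletal muscle, and averaged 33.1 ± 5.43 CPM in 48Q tumors and 0.111 ± 0.156 CPM in WT prostate. All 3 calls were lost without 48Q replicate 2 or WT replicate 1, among other libraries. Their summed level was 7.95 and 5.85 CPM in 12Q tumors, 48.9 and 34.5 CPM in 48Q tumors and 79.8 and 212 CPM in WT prostate. A sum without Neb was added after the values were seen. It was 7.84 and 5.26 CPM in 12Q tumors, 11.9 and 5.25 CPM in 48Q tumors and 79.8 and 212 CPM in WT prostate. The 12Q and 48Q libraries then overlapped. Without Acta1 the sum was 40.7 and 32.6 CPM in 48Q tumors and 9.39 and 18.6 CPM in WT prostate. Both 48Q libraries then lay above both WT libraries, and both 12Q libraries lay below both WT libraries. Most of the full WT sum was thus Acta1, at 70.4 and 193 CPM. Acta1 averaged 0.253 ± 0.00806 CPM in 12Q tumors and 132 ± 86.9 CPM in WT prostate (512-fold lower, edgeR adjusted p = 0.00519, log2 fold change -9.55 to -8.10 when 1 library was left out). Myh4 and Pvalb, which define fast skeletal fibres, were at 0 counts in every group, and Ckm, the muscle creatine kinase, was at 0 and 0.0309 CPM in 12Q tumors, 0.361 and 0 CPM in 48Q tumors and 3.18 and 7.34 CPM in WT prostate.

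**Figure D5:**
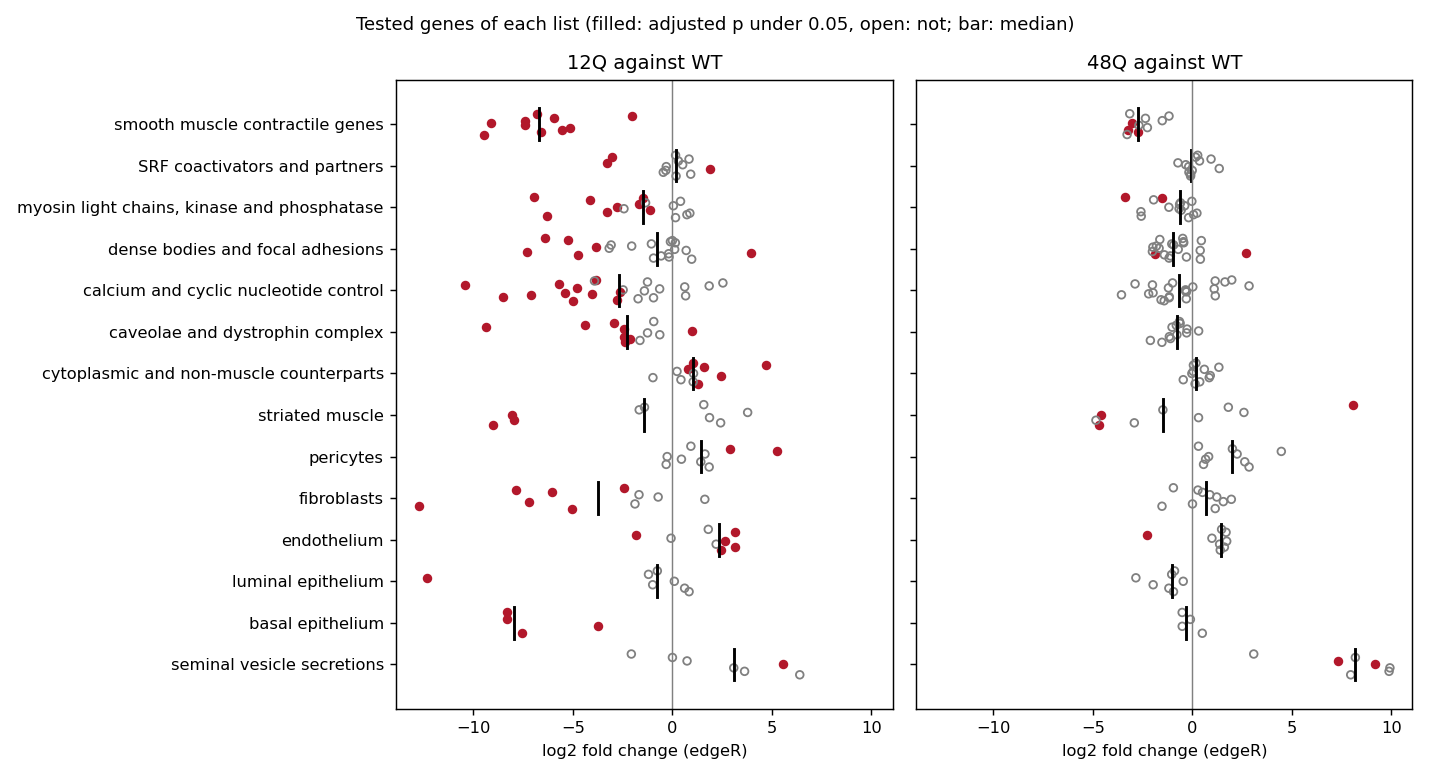
Fitted log2 fold change of every tested gene in each list, 12Q against WT left and 48Q against WT right, with filled points for an adjusted p under 0.05 and a bar at the median; genes at 0 counts in 1 group are drawn at their fitted value. The contractile genes lie at a median of -6.70 in the left panel and -2.71 in the right one, while pericyte genes lie at 1.42 and 2.01, and with bounded values the seminal vesicle medians are 0 and 4.85.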

How the data were processed

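Per the labels' protocols, total RNA was extracted with RNA-Bee and libraries were prepared with Kapa reagents. The deposited values are whole-number read counts per gene in 1 table of the authors, with no normalization. The submitters' processing notes name mm10, TopHat2 2.0.14 and HTSeq 0.6.0. No source used here states the strand setting, the annotation or how reads with several matches were treated. Columns of per-sample values that matched no sample numbered 0. The humanised gene itself is not reported here.

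The 15050 genes tested passed filterByExpr of edgeR 4.0.16 in R 4.3.3 (minimum count 10, minimum total 15), and counts were scaled by TMM. Quasi-likelihood F tests were run in 1 fit of 3 groups with 3 residual degrees of freedom, with Benjamini-Hochberg adjustment at 0.05, and the procedure was tested on simulated data. RPKM used the deposited gene lengths. Intervals and floors of 3 counts cover counting error only. Replicates differed by more than sampling noise (chi-square over degrees of freedom 263 in 12Q, 40.1 in 48Q and 183 in WT), so none were merged. Coordinates are those of the deposited table (mm10), and exon overlaps came from GENCODE M21, in which 23509 of 24091 symbols were found. Among other genes named, Abcc9, Actg1, Ckm, Elk3, Gata6, Mkl1, Mkl2, Ndufa4l2, Neb, Pdgfra, Pln and Tnnc2 also have exons that overlap another gene.

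The members, the 13 lists of related genes and cell type markers, and the tests were chosen with earlier results of these data known. From each list the genes named were the 3 past the threshold with the smallest p, or, where none passed, the 2 of highest mean CPM, and further markers where a result needed them, leaving out some for length. The 8 genes most like the members were taken among genes with a group mean of at least 10 CPM and a usual symbol, by Pearson correlation of log2 CPM (prior count 2). Srf, Mkl1, Mkl2, Actb and Rgs5 were picked with their values in view. Each result was recomputed with the size factors of DESeq2 or library totals, no low-count filter or 1 CPM in 2 libraries, DESeq2 1.42.0, a replicate block, only the groups compared, and each library left out.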

Additional observations from a re-analysis of the deposited data

Results flagged for a closer look

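The 12Q and 48Q tumors were tested against each other with edgeR, and 5 of the 10 contractile genes differed between them, all lower in 12Q. The log2 fold changes were -6.17 for Myh11, the smooth muscle myosin heavy chain, -6.09 for Cnn1, calponin, -4.73 for Des, desmin, -3.87 for Tagln, transgelin, and -3.61 for Lmod1, leiomodin (edgeR adjusted p = 0.0297, 0.0229, 0.0246, 0.0277 and 0.0419). Of all tested genes 3.16% were called lower in this comparison. Without 12Q replicate 1 or 12Q replicate 2 none of the 5 passed, and without 48Q replicate 1 Cnn1 alone did (edgeR adjusted p = 0.0351).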

How the results depend on the processing

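All 10 genes kept a negative log2 fold change in every comparison under all 13 alternatives. In 12Q against WT 8 to 10 genes were called when 1 library was left out, 9 with library totals or with only the groups compared, and 10 under the other alternatives. In 48Q against WT, where 3 were called, the count was 0 with library totals, 5 with no low-count filter, 8 with DESeq2, 0 with only the groups compared, 2 with 1 CPM in 2 libraries and 0 to 1 when 1 library was left out. In 12Q against 48Q, where 5 were called, it was 4 with library totals, 8 with no low-count filter, 9 with DESeq2 and 0 to 5 when 1 library was left out. DESeq2 called 2507 genes lower and 2409 higher of all genes in 12Q against WT where edgeR called 1683 and 1687, 979 and 1561 in 48Q against WT where edgeR called 185 and 595, and 1561 and 920 in 12Q against 48Q where edgeR called 475 and 152. With library totals the calls were 1032 lower and 3266 higher, 83 and 1921, and 379 and 62, and the median of all genes moved to 0.48, 0.71 and -0.19. Of the counts over the related lists 804 stayed within 1.5 times and 210 did not. Counts of 0 that stayed at 0 are among the 804, so this does not measure how steady the other counts were.

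The replicate numbers did not pair the samples: deviations of libraries with the same number correlated at 0.0252 (12Q and 48Q), 0.134 (12Q and WT) and -0.103 (48Q and WT). With the replicate number as a block 10, 2 and 5 of the 10 genes were called in 12Q against WT, 48Q against WT and 12Q against 48Q. Groups of 2 libraries limit every statement here, and the calls in 48Q against WT lie close to the threshold. In 48Q against WT far fewer of all tested genes were called without either 48Q library or WT replicate 1 than with all libraries. The same held in 12Q against 48Q without any 1 of the 12Q or 48Q libraries. A call lost in those fits is thus not particular to the gene named. Counts of 3 or fewer limit Myocd in 12Q tumors.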
